A study of Mus musculus with 4 samples.

Results

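The 7 BCL2 family genes described here are Bcl2, Bcl2l1, Mcl1, Bax, Bak1, Bcl2l11 and Bid. They were taken by name, and all 7 were found among the 14721 genes counted in single T cells of mice bearing B16, a melanoma line grown as a graft. As the labels describe it, these mice were given cyclophosphamide at 250 mg/kg and, a day later, purified CD4 T cells whose transgenic receptor sees the melanocyte protein TRP1 (strain given as RAG1- BW TRP-1 TCR), although the treatment field reads untreated. Tumors were taken on day 11 after transfer, and the donor CD4+ and CD4+CD8+ cells were sorted. The gate used for the lymph node cells is not clear from the labels, since that library holds 2788 cells labelled Cd8, and every tumor to lymph node ratio below is subject to this. The study set a tumor library beside a lymph node library, each with 1 RNA sample and 1 receptor sample, and the number of animals behind each is not given.

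The tumor RNA library held 5570 cells, which the authors labelled Tdp (2693 cells), Cd4 (2451), Tcell (406), Treg (19) or Cd8 (1). The lymph node RNA library held 4988 cells, labelled Cd8 (2788), Cd4 (1873), Treg (321) or Tdp (6). The labels do not spell out Tdp, and groups of fewer than 50 cells are left out below. The tumor samples are titled transgenic endogenous and the lymph node samples endogenous. A transgenic chain was found in 5540 of 5570 tumor cells and in 0 of 4988 lymph node cells. Tissue, receptor and cell makeup thus cannot be told apart between the libraries. The totals were 33147030 UMIs in tumor and 29067001 in lymph node. Median depth ran from 4763 to 6633 UMIs per cell in 5 labels and was 2040 in tumor Tcell cells. The median share of UMIs from ribosomal protein genes was 29.1% in tumor and 43.7% in lymph node. Both libraries held all 5 T cell marker genes tested. B cell, macrophage, dendritic cell, neutrophil and melanoma markers summed to at most 14.7 CPM per list in either library, and Adgre1 and Csf3r were at 0 in both. The libraries shared 36 cell barcodes, and without those cells the log2 ratio of Bcl2 between the libraries was -2.93, against -2.94 with them.

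BCL2 family proteins meet at the outer mitochondrial membrane and set whether a cell releases cytochrome c and dies. BCL2, BCL-XL and MCL1 hold the pore formers BAX and BAK in check, and BH3-only proteins such as BIM and BID release that check or activate the pore formers directly. In T cells, resting survival depends on interleukin 7 and BCL2, activated cells draw on BCL-XL and MCL1, and BIM ends responses as antigen and cytokine wane.

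With 1 RNA library per tissue there is no replicate, so no p is given, and each interval is a 95% interval that covers counting error only. Levels are the summed UMIs of a gene in a label scaled to the label's total as CPM. A ratio is called past a threshold at 1.5-fold or 2-fold on log2(CPM + 1) among genes with 20 CPM or more in either group, and intervals of ratios are taken without the added 1. A single UMI can come from free RNA or a mislabelled cell: a Cd4 UMI was seen in 4.59% of lymph node Cd8 cells (median 6306 UMIs) and a Cd8a UMI in 1.39% of lymph node Cd4 cells (median 4763 UMIs), and in 1.96% and 0.828% after thinning to 2000 UMIs per cell.

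The start sites of the 3 genes whose levels or ratios are followed furthest below are shown as the 300 bases from 250 before to 50 after a RefSeq start site on GRCm38.p6, 5′ to 3′ on the strand of the gene. Capitals mark a match to the FOXO letters GTAAACA or to the NF-kB motif (GGG, any 2 bases, TT, any base, CC) on either strand. Bcl2 is at chr1:106714241-106714540 (minus strand), Bcl2l1 at chr2:152830668-152830967 (minus strand, 1 of 3 windows listed for the gene) and Bcl2l11 at chr2:128125788-128126087 (plus strand, 1 of 2 windows).
Bcl2: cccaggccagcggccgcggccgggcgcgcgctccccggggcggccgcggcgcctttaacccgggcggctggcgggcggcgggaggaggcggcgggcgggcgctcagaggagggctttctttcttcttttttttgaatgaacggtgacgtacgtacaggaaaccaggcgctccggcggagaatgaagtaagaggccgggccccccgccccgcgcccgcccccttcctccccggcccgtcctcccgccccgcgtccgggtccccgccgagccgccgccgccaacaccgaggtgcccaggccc
Bcl2l1: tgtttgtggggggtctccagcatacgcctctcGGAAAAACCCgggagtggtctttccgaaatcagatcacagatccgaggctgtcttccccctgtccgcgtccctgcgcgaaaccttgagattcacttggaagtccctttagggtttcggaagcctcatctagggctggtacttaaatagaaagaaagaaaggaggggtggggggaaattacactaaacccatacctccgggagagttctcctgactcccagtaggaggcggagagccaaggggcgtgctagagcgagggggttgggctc
Bcl2l11: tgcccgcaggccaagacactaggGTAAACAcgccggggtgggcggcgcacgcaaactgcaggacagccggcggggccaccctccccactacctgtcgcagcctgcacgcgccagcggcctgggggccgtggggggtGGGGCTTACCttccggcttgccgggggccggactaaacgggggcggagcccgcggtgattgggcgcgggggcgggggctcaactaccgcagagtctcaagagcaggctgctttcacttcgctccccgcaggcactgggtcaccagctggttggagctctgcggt
The Bcl2 window had 76.0% G and C and held neither motif nor the STAT letters TTCNNNGAA, against a median of 52.7% G and C over all promoters. The Bcl2l11 window held GTAAACA at -227 and GGGGCTTACC at -114 from the start site, and the Bcl2l1 window held GGAAAAACCC at -218. The other 2 windows of Bcl2l1 and the other window of Bcl2l11 held no match, so the windows shown are those with one. Of 32851 mouse promoter windows of equal length, 3.65% held the FOXO letters, 4.79% the NF-kB letters and 8.30% the STAT letters. Of the other 4 genes, Mcl1 alone held a match, GGAAACGCCC at -28. The motifs were chosen after the levels were known, and a match describes letters in a window and not a bound site.

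Bcl2, the survival gene of resting T cells, separated the libraries more than any other of the 7. It stood at 30.6 CPM in tumor Tdp, 29.8 in tumor Cd4 and 28.5 in tumor Tcell cells, and at 243, 234 and 196 CPM in lymph node Cd8, Cd4 and Treg cells. Every lymph node label was above every tumor label. The 3 tumor labels did not differ beyond counting error, nor did lymph node Cd8 and Cd4 cells (ratio 1.04, 0.983 to 1.09), and Treg cells were lower than Cd4 cells (ratio 0.838, 0.749 to 0.936). Between the libraries Bcl2 was 7.87-fold lower in tumor (7.37 to 8.42), at 30.1 against 237 CPM. The fold was alike within related labels, 7.87 (7.08 to 8.77) for Cd4 cells and 7.93 (7.26 to 8.67) for tumor Tdp against lymph node Cd8 cells. Over the 10 to 11 alternatives of each of these 3 comparisons the log2 ratio lay between -3.28 and -2.62. The gene lies on chromosome 1 at 106538176 to 106714290 (mm10).

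Bcl2 also differed in how many cells showed it, although fewer expressing cells and less RNA per cell cannot be told apart from summed counts. The share of cells with at least 1 Bcl2 UMI was 14.2% in tumor (13.3% to 15.1%) and 60.4% in lymph node (59.1% to 61.8%), and 0.70% and 19.1% had 3 or more. At 2000 UMIs per cell the shares with a UMI were 5.57% and 33.0%. The tumor share at 2000 UMIs was above both benchmarks for free RNA, which come from the lymph node library. At that depth 1.61% of tumor Cd4 cells had a Cd8a UMI and 4.88% a Cd8b1 UMI, against 5.25% with a Bcl2 UMI. These 2 genes were of higher level in the tumor library, at 428 and 645 CPM against 30.1 CPM for Bcl2. The part of free RNA in the Bcl2 share was not tested. Lymph node Treg cells showed Bcl2 in 43.9% of cells (38.4% to 49.5%), fewer than the 57.2% of Cd4 cells (55.0% to 59.5%), although 16.8% of Treg and 13.6% of Cd4 cells had 3 or more UMIs.

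**Figure D1:**
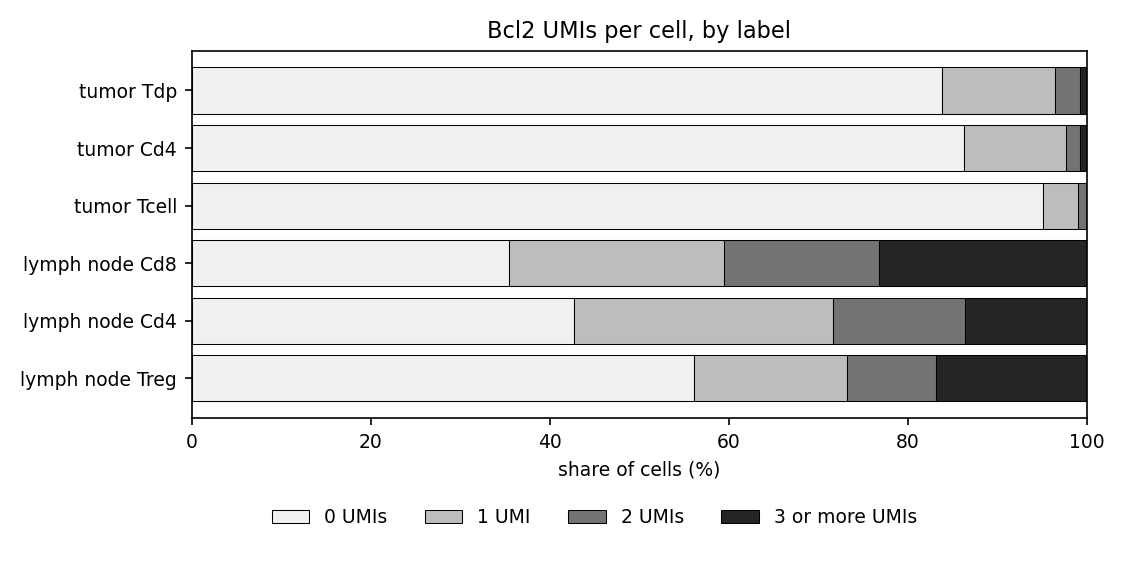
Share of cells (%, horizontal axis) with 0, 1, 2 or 3 or more Bcl2 UMIs in each label; no replicates, so no error bars. Cells without a Bcl2 UMI make up most of each tumor label, and 23.2% of lymph node Cd8 cells have 3 or more.

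Bcl2l1 encodes BCL-XL, the survival protein of activated cells, and differed in the other direction. Its level was 23.7 CPM in tumor Tdp, 50.5 in tumor Cd4 and 36.8 in tumor Tcell cells, and 11.5, 6.78 and 36.8 CPM in lymph node Cd8, Cd4 and Treg cells. From the highest down, the order was tumor Cd4, tumor Tcell and lymph node Treg at the same level, tumor Tdp, lymph node Cd8 and lymph node Cd4. Tumor Tcell cells did not differ from tumor Cd4 cells beyond counting error (ratio 0.728, 0.491 to 1.04), but at 2000 UMIs per cell the log2 ratio was -1.08 in place of -0.45, past 1.5-fold lower, on 10 UMIs in 214 Tcell cells. The order also changed at that depth, where the mean Bcl2l1 UMIs per cell were 0.0467 in tumor Tcell, 0.0484 in tumor Tdp and 0.0583 in lymph node Treg cells. On all UMIs the interval of lymph node Treg cells (28.7 to 46.5 CPM) overlapped that of Tcell cells. Tumor Cd4 cells had 7.44-fold more than lymph node Cd4 cells (5.73 to 9.84), and tumor Tdp cells 2.06-fold more than lymph node Cd8 cells (1.74 to 2.44). Over all cells the tumor level was 3.04-fold higher (2.69 to 3.44). A Bcl2l1 UMI was seen in 3.04% of lymph node Cd4 cells, a share between the free RNA benchmarks. Those benchmarks rest on Cd4 and Cd8a, at 66.2 and 328 CPM in the lymph node library, against 11.7 CPM for Bcl2l1. The 7.44-fold ratio is thus taken against a low level, and the part of free RNA in it was not tested. The gene lies on chromosome 2 at 152758732 to 152833803.

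Between tumor Tdp and Cd4 cells of the same receptor, Bcl2l1 was the 1 member past 1.5-fold. Among cells with a transgenic chain, 2682 Tdp cells stood at 23.7 CPM and 2435 Cd4 cells at 50.7 CPM, a 2.13-fold lower level in Tdp cells (1.89 to 2.41). The difference held when cells were classed by coreceptor UMIs in place of labels. By that classing the tumor levels were 25.3 CPM in double positive cells, 52.8 with Cd4 UMIs alone, 24.1 with Cd8 UMIs alone and 41.1 CPM in cells with no coreceptor UMI. Both classes with a Cd8 UMI were thus below both classes without one. Bcl2 lay between 24.6 and 31.1 CPM in the same 4 classes. Dendritic cell markers, mostly Itgax, summed to 21.0 CPM in Tdp and 2.65 CPM in Cd4 tumor cells, with Flt3 at 0 in both, and the call was the same without cells that had a UMI of another cell type's markers. At equal depth a Bcl2l1 UMI was seen in 4.62% of Tdp (3.85% to 5.49%) and 9.39% of Cd4 tumor cells (8.25% to 10.6%).

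Mcl1 encodes a short-lived survival protein that T cells need at nearly every stage. It was at 124, 129 and 199 CPM in tumor Tdp, Cd4 and Tcell cells and at 91.3, 115 and 142 CPM in lymph node Cd8, Cd4 and Treg cells. Its highest level was in the shallow tumor Tcell cells, 1.54-fold above tumor Cd4 cells (1.31 to 1.81). At 2000 UMIs per cell that log2 ratio was 0.58, just inside 1.5-fold. Mcl1 was 1.26-fold higher in tumor than lymph node (1.20 to 1.32), and 1.36-fold higher in tumor Tdp than lymph node Cd8 cells (1.28 to 1.45). Between tumor and lymph node Cd4 cells it was 1.12-fold higher, and with ribosomal protein, mitochondrial and receptor genes left out of the total the log2 ratio changed sign, to -0.15. Lymph node Cd8 cells had 1.26-fold less than Cd4 cells (1.16 to 1.36). The gene lies on chromosome 3 at 95656944 to 95663179.

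**Figure D2:**
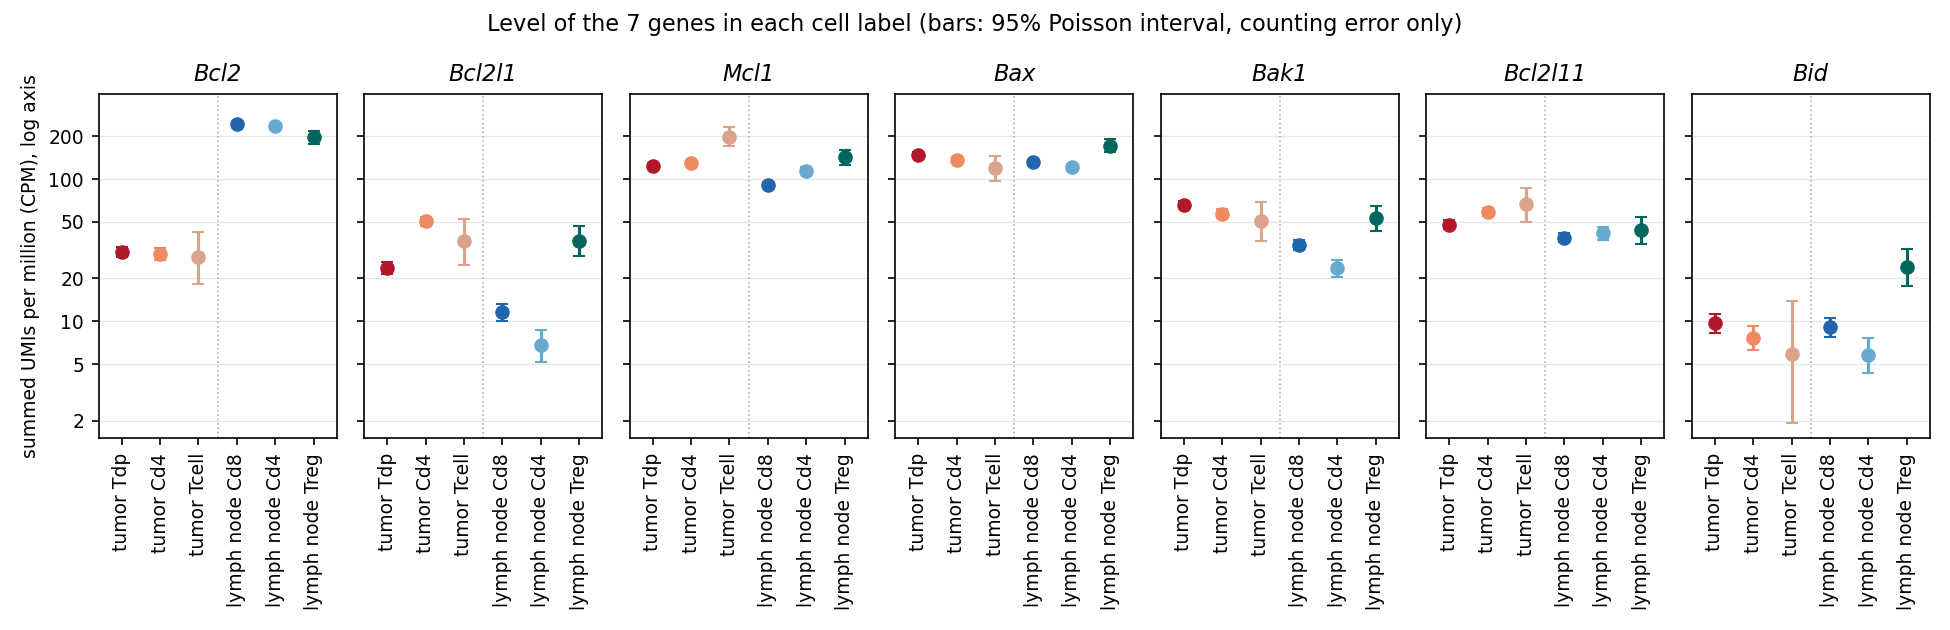
Level of each gene (vertical axis, CPM on a log axis) in 3 tumor and 3 lymph node labels, with 95% Poisson intervals that cover counting error only. Bcl2 falls into a low tumor set and a high lymph node set, Bcl2l1 is lowest in lymph node Cd4 cells at 6.78 CPM, and Bid is highest in lymph node Treg cells at 24.2 CPM.

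Within the tumor the UMIs of the 3 survival genes had a different make-up from that in lymph node. Bcl2 took 67.6% of their summed UMIs in lymph node (66.7% to 68.5%) and 15.6% in tumor (14.7% to 16.5%). Bcl2l1 took 3.33% and 18.3%, and Mcl1 29.0% and 66.1%. These shares are free of the scaling to the total, and they are not shares of protein or of transcript molecules of the genes. Among tumor labels the Bcl2l1 share was 24.1% in Cd4 cells (22.6% to 25.7%) and 13.3% in Tdp cells (12.1% to 14.5%). In lymph node it was 1.90% in Cd4, 3.34% in Cd8 and 9.79% in Treg cells.

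Bax and Bak1 encode the pore formers of the mitochondrial membrane. Bax was the flattest member, at 149, 136 and 120 CPM in tumor Tdp, Cd4 and Tcell cells and 132, 121 and 172 CPM in lymph node Cd8, Cd4 and Treg cells. It was 1.08-fold higher in tumor than lymph node (1.04 to 1.13), and its log2 ratio changed sign, to -0.18, with ribosomal protein, mitochondrial and receptor genes left out of the total. The highest level was in lymph node Treg cells, 1.42-fold above Cd4 cells (1.25 to 1.61). Bax lies on chromosome 7 at 45461695 to 45466903.

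Bak1, in contrast, stood at 65.9 CPM in tumor Tdp, 57.1 in tumor Cd4 and 51.0 in tumor Tcell cells, and at 34.3, 23.6 and 53.1 CPM in lymph node Cd8, Cd4 and Treg cells. Tumor Tdp and Cd4 cells lay above lymph node Cd8 and Cd4 cells with intervals apart, the interval of tumor Tcell cells (36.9 to 68.7 CPM) touched that of lymph node Cd8 cells (31.7 to 37.1 CPM), and Treg cells lay within the tumor range. The tumor level was 1.92-fold higher overall (1.78 to 2.08), 2.42-fold between Cd4 cells (2.08 to 2.83) and 1.92-fold for Tdp against lymph node Cd8 cells (1.74 to 2.12). Bak1 took 30.3% of the summed Bax and Bak1 UMIs in tumor (29.2% to 31.4%) and 19.7% in lymph node (18.6% to 20.9%). In lymph node, Cd8 cells had 1.46-fold more than Cd4 cells (1.24 to 1.71). In tumor, Tdp cells had 1.15-fold more than Cd4 cells with the same receptor (1.05 to 1.26). Bak1 lies on chromosome 17 at 27019812 to 27028627.

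Bcl2l11 encodes BIM, the BH3-only protein that ends T cell responses. Its level was 47.9, 58.9 and 66.4 CPM in tumor Tdp, Cd4 and Tcell cells and 38.7, 41.7 and 43.6 CPM in lymph node Cd8, Cd4 and Treg cells. The lymph node labels did not differ from each other beyond counting error in the comparisons made, and each tumor level was above each lymph node level, although the interval of Treg cells (34.7 to 54.0 CPM) overlapped those of tumor Tdp and Tcell cells and the interval of lymph node Cd4 cells (37.6 to 46.1 CPM) overlapped that of tumor Tdp cells (44.8 to 51.2 CPM). The step was small next to that of Bcl2: 1.33-fold higher in tumor overall (1.23 to 1.43), 1.41-fold between Cd4 cells (1.25 to 1.60) and 1.24-fold for Tdp against lymph node Cd8 cells (1.12 to 1.37). With ribosomal protein, mitochondrial and receptor genes left out of the total, the last of these had a log2 ratio of -0.01. Tdp tumor cells had 1.23-fold less than Cd4 tumor cells with the same receptor (1.12 to 1.35). Bcl2l11 lies on chromosome 2 at 128126038 to 128162547.

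The balance of Bcl2 to Bcl2l11 does not depend on scaling. There were 6.28 Bcl2 UMIs per Bcl2l11 UMI in lymph node Cd8 cells (5.80 to 6.81), 5.62 in Cd4 cells (5.04 to 6.29) and 4.51 in Treg cells (3.54 to 5.79). In tumor there were 0.640 in Tdp (0.574 to 0.712), 0.505 in Cd4 (0.448 to 0.569) and 0.429 in Tcell cells (0.254 to 0.703). The ratio was thus above 1 in each lymph node label and below 1 in each tumor label. Tdp cells were above Cd4 cells in tumor with intervals that did not overlap. The ratio of UMIs of 2 genes is compared between labels only and is not a ratio of molecules. At 2000 UMIs the Treg value was 3.31, below its interval, and no other label left its interval under the alternatives tried.

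**Figure D3:**
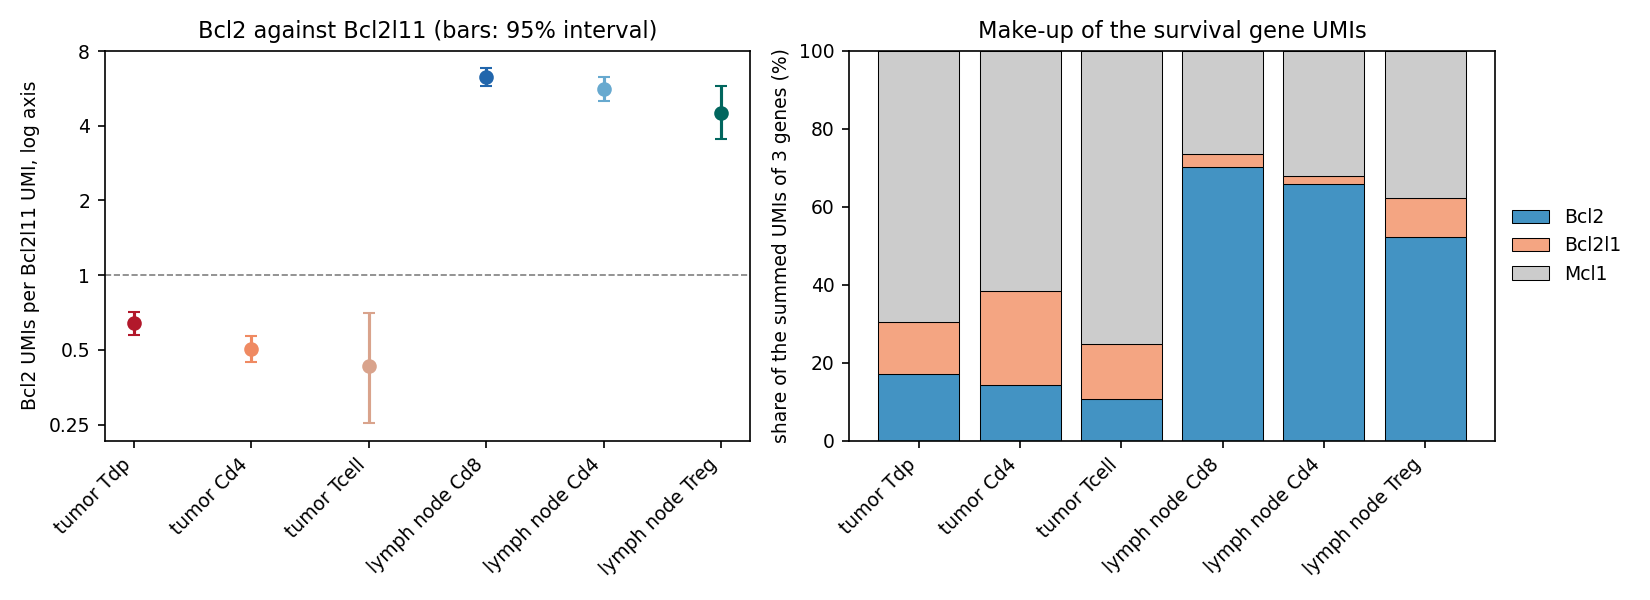
Left, Bcl2 UMIs per Bcl2l11 UMI in each label on a log axis, with 95% intervals (counting error only) and a dashed line at 1; right, share (%) of Bcl2, Bcl2l1 and Mcl1 in their summed UMIs. All 3 tumor labels lie below 1 and all 3 lymph node labels above 4, and Mcl1 takes the largest share in each tumor label.

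Bid encodes a BH3-only protein that links death receptors to mitochondria once it is cleaved. Its levels were 9.65, 7.66 and 5.93 CPM in tumor Tdp, Cd4 and Tcell cells and 9.05, 5.78 and 24.2 CPM in lymph node Cd8, Cd4 and Treg cells. Treg cells stood alone, 4.18-fold above lymph node Cd4 cells (2.75 to 6.34), and this was the sole label in which Bid reached 20 CPM. In lymph node Cd4 cells 2.67% of cells had a Bid UMI. That share lay between the free RNA benchmarks, which rest on genes of higher level in the library than Bid. Tumor and lymph node did not differ beyond counting error (ratio 0.971, 0.818 to 1.15). Bid lies on chromosome 6 at 120893119 to 120917062.

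The members called in each comparison are counted here beside the share of all genes past the same threshold. Between the libraries 6 of 7 members reached 20 CPM and 3 were past 1.5-fold (Bcl2 lower, Bcl2l1 and Bak1 higher), where 33.7% of 4978 genes were past 1.5-fold and 16.7% past 2-fold. Between the Cd4 labels of the tissues 3 of 6 were past 1.5-fold (40.0% of all genes; 21.0% past 2-fold), and for tumor Tdp against lymph node Cd8 cells also 3 of 6 (34.3%; 16.5% past 2-fold), the same 3 genes each time. These counts share cells and are not independent. For tumor Tdp against Cd4 cells 1 of 6 was past (9.34%; 3.51% past 2-fold), and for tumor Tcell against Cd4 cells 1 of 6, Mcl1 (25.4%; 6.94% past 2-fold). For lymph node Cd8 against Cd4 cells 0 of 5 were past (8.79%; 3.55% past 2-fold). For lymph node Treg against Cd4 cells 3 of 7 were past, Bcl2l1, Bak1 and Bid, all higher (29.4%; 11.9% past 2-fold). The median log2 ratio of the members that reached 20 CPM was 0.37 between the libraries, against 0.16 over all genes. Bcl2 lay at the 0.864 percentile of all ratios there and Bcl2l1 at the 93.9 percentile.

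**Figure D4:**
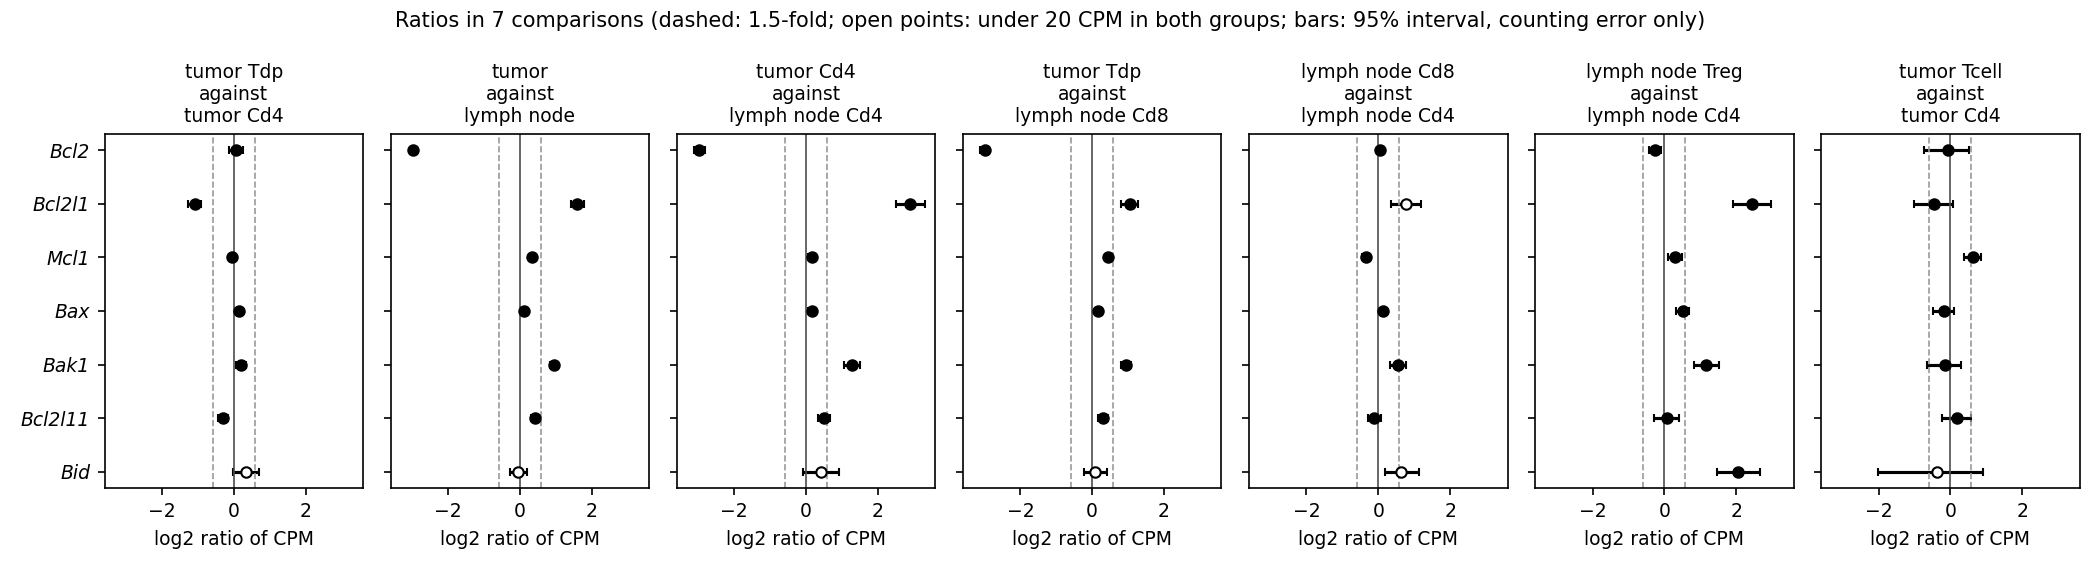
log2 ratio of CPM (horizontal axis) of each gene in 7 comparisons, with 95% intervals that cover counting error only, dashed lines at 1.5-fold and open points where both groups are under 20 CPM. Bcl2 lies near -2.9 in the 3 comparisons across tissue, Bcl2l1 is to the right in those and to the left in tumor Tdp against Cd4 cells, and Bax stays inside the dashed lines throughout.

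Several of the 7 were higher in lymph node Treg cells than in Cd4 cells of their library. Bcl2l1 was 5.42-fold higher (3.79 to 7.77), Bid 4.18-fold, Bak1 2.25-fold (1.76 to 2.87), Bax 1.42-fold and Mcl1 1.24-fold (1.08 to 1.42), while Bcl2l11 did not differ beyond counting error (ratio 1.05, 0.814 to 1.33). Over all genes in this comparison the median log2 ratio was 0.31, with 1324 past 1.5-fold higher and 199 lower. Mcl1 lay at the 50.2 percentile of these ratios and Bax at the 69.1 percentile. TMM scaling shifted the median log2 ratio of all genes by -0.33 and turned Mcl1 to -0.03 and Bcl2l11 to -0.27. It left Bax at 0.17 and took Bcl2 to -0.59, past 1.5-fold lower. The label was mixed in these data: Foxp3, the defining factor of regulatory T cells, was seen in 73.8% of its cells and Cd8a in 17.1%. B cell markers, mostly Cd79b, summed to 31.0 CPM in Treg and 1.11 CPM in Cd4 cells, and 17.4% and 2.88% of cells had a UMI of another cell type's markers. The 3 calls were the same without such cells. The median ribosomal share was 30.4% in Treg and 43.5% in Cd4 cells, and its part in the ratios was not tested. A Foxp3 UMI was seen in 1.17% of lymph node Cd4 cells.

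The Treg label was split by Foxp3 UMIs after the levels were seen, and Bcl2 was not even within it. The 237 cells with a Foxp3 UMI stood at 164 CPM of Bcl2 and the 84 cells without at 307 CPM, a ratio of 0.534 (0.431 to 0.665), at median depths of 5458 and 4825.5 UMIs. Bak1 was 2.68-fold higher with Foxp3 (1.39 to 5.78), at 61.9 against 23.1 CPM. With cells kept only when they had a Foxp3 UMI and no Cd8a UMI, the log2 ratio of Bcl2 to lymph node Cd4 cells was -0.67 in place of -0.25, past 1.5-fold, and Bcl2l1, Bak1 and Bid stayed past it.

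Within the same label, cells with a Bcl2 UMI had less Bak1 and Bid than cells without. Bak1 stood at 35.3 CPM in the 141 cells with a Bcl2 UMI and 69.1 CPM in the 180 without (ratio 0.511, 0.325 to 0.788), at median depths of 5620 and 5094 UMIs. Bid stood at 9.94 and 37.1 CPM (ratio 0.268, 0.114 to 0.566), on 9 and 37 UMIs. Mcl1 was 1.33-fold higher with Bcl2 (1.04 to 1.70), and at 2000 UMIs per cell its log2 ratio was 0.11 in place of 0.40. Cells with a UMI of Tcf7, a factor of resting and stem-like T cells, had 1.54-fold more Bcl2 than those without (1.25 to 1.92) and Bak1 at a ratio of 0.540 (0.350 to 0.822). Treg-labelled cells with a Cd8a UMI had more Bcl2 (log2 ratio 0.63) and less Bid (-1.98) than those without, with Bak1 at -0.05. How far the Bcl2 split follows this mix of cells was not tested. These splits were also added after the levels were seen. In the other 4 labels split by a Bcl2 UMI, the ratio of Bak1 ran from 0.885 to 0.993 with each interval holding 1, and Bid was 1.67-fold higher with Bcl2 in tumor Tdp cells (1.17 to 2.34). Whether labels differ in these ratios was not tested.

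The spread among cells was described at equal depth, with no interval or test. At 2000 UMIs per cell the variance of Bcl2 UMIs over their mean, which is 1 for pure counting error, was 1.59 in lymph node Treg, 1.37 in Cd4 and 1.28 in Cd8 cells and 1.08 to 1.17 in tumor labels, where the mean was lower (0.0583 to 0.0654 UMIs per cell, against 0.343 to 0.483 in lymph node). Treg cells with 2 or more Bcl2 UMIs made up 8.74%, where counting error alone around their mean gives 4.70%. Bcl2l11 ran from 1.10 to 1.29 over the 6 labels. Mcl1 lay between 0.898 and 1.12.

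Cells with an Il7r UMI were set against cells without in 5 labels, of which lymph node Treg was added after the levels were seen. Il7r encodes the interleukin 7 receptor, which sustains BCL2 in resting T cells. With an Il7r UMI, Bcl2 was 1.26-fold higher in tumor Tdp (1.07 to 1.5), 1.23-fold in lymph node Cd8 (1.15 to 1.32) and 1.13-fold in lymph node Cd4 cells (1.03 to 1.24). In tumor Cd4 cells it stood at 32.4 against 28.1 CPM, with an interval that held 1 (ratio 1.15, 0.944 to 1.41), and in lymph node Treg cells at 192 against 202 CPM (ratio 0.952, 0.773 to 1.17). Bcl2l11 was lower with Il7r in both tumor labels, at ratios of 0.761 in Tdp (0.664 to 0.873) and 0.687 in Cd4 cells (0.591 to 0.798), and higher in lymph node Cd8 cells (ratio 1.22, 1.03 to 1.45). Whether the ratios of tumor and lymph node labels differ from each other was not tested. Cells with an Il7r UMI were deeper, with medians of 7071 against 6241.5 UMIs in tumor Tdp cells. At 2000 UMIs the Bcl2l11 log2 ratios were -0.47 in Tdp and -0.49 in Cd4 tumor cells.

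Other splits separated single members. In lymph node Cd4 cells, those with a Tcf7 UMI had 1.56-fold more Bcl2l11 (1.17 to 2.13) and Bcl2l1 at a ratio of 0.490 (0.282 to 0.875). The 53 lymph node Cd8 cells with a UMI of Gzmb, a cytotoxic granule protease, had 1.98-fold more Bcl2l11 (1.32 to 2.85), at 74.9 against 37.9 CPM. They had 1.35-fold more Bcl2 (1.12 to 1.60). At 2000 UMIs per cell the log2 ratios were 1.55 for Bcl2l11 and 0.18 for Bcl2, against 0.97 and 0.43 on all UMIs. Split by Gzmb in tumor, Bcl2l11 had log2 ratios of -0.32 in Tdp and -0.08 in Cd4 cells. At 2000 UMIs these were 0.06 and 0.09. Tumor Cd4 cells above the median UMI count of their label had 1.57-fold more Bcl2 than the rest (1.26 to 1.97). Their Bcl2l11 was at a ratio of 0.692 (0.602 to 0.796). With cells thinned to 2000 UMIs the log2 ratios were 0.54 for Bcl2 and -0.64 for Bcl2l11, against 0.63 and -0.52 on all UMIs. In all, 25 splits were made, 9 of them added after the levels were seen, and intervals are not corrected for this number.

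**Figure D5:**
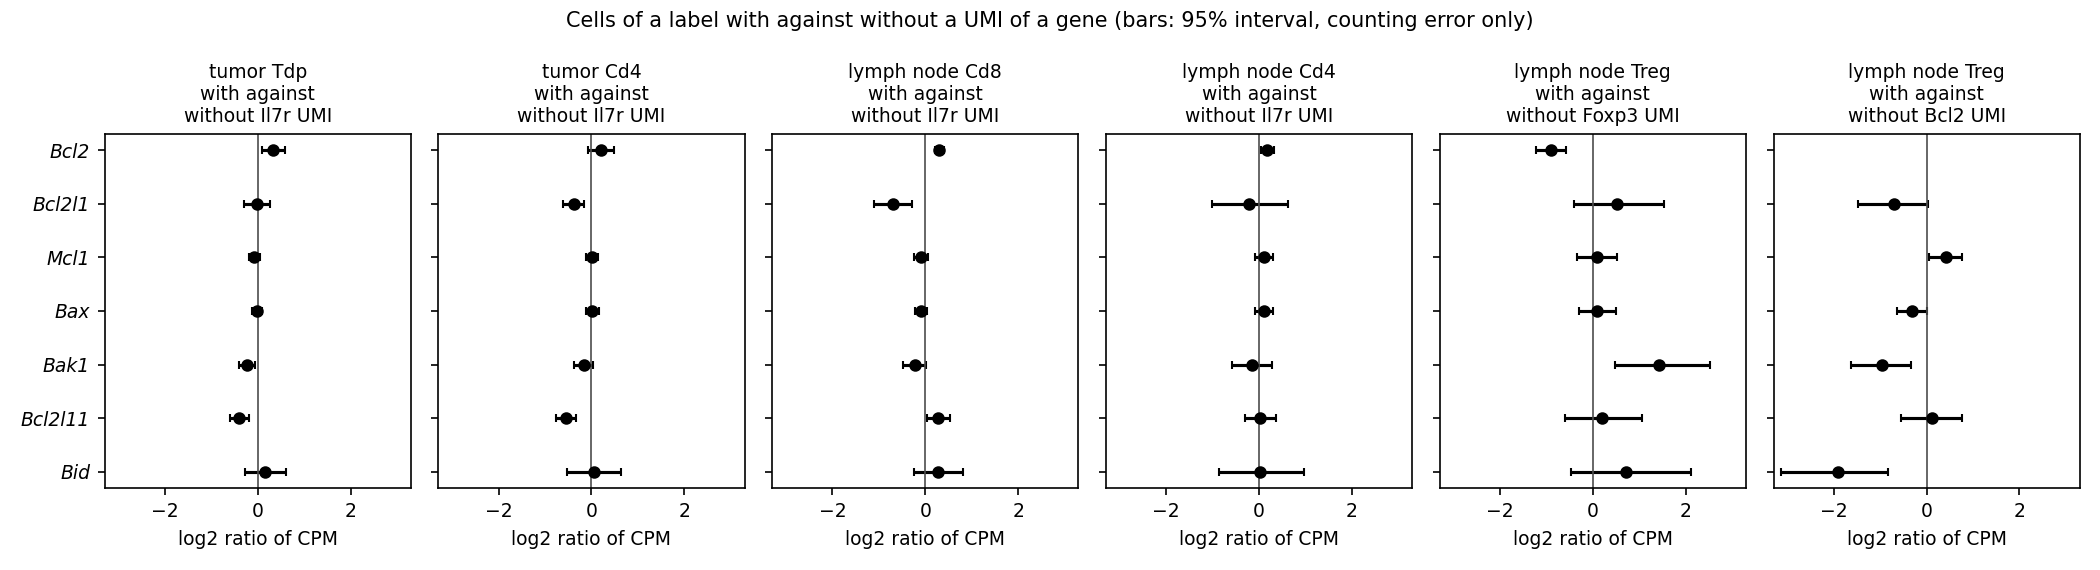
log2 ratio of CPM (horizontal axis) of each gene between cells with and without a UMI of Il7r, Foxp3 or Bcl2 in a label, with 95% intervals that cover counting error only; Bcl2 is left out where it made the split. Bcl2l11 lies left of 0 in both tumor labels split by Il7r, and Bcl2 lies left of 0 in lymph node Treg cells split by Foxp3.

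Other BCL2 family genes were compared in the same way. Of 18 listed, 15 were in the table and 7 reached 20 CPM between the libraries. Of these, 4 were at least 2-fold higher in tumor and 0 lower, where 16.7% of all genes were past 2-fold in either direction. Their median log2 ratio was 1.51, against 0.16 over all genes. Pmaip1, the gene of the BH3-only protein NOXA that acts on MCL1, stood at 78.7 and 83.8 CPM in tumor Tdp and Cd4 cells and 30.3 and 10.7 CPM in lymph node Cd8 and Cd4 cells. Bnip3, a mitophagy gene, was at 19.6 and 38.9 against 3.53 and 7.0 CPM. Bcl2a1b and Bcl2a1d, survival genes of the A1 family, were at 178 and 119 CPM in tumor against 30.0 and 7.71 CPM in lymph node. Both are in the count of 4, but these copies are near identical and reads may be split between them. Bbc3, the gene of the BH3-only protein PUMA, was on the other side, at 36.5 CPM in tumor Cd4 and 57.1 CPM in lymph node Cd4 cells.

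Downstream of mitochondria, 7 of 14 genes reached 20 CPM between the libraries, 2 were past 1.5-fold higher and 1 lower, with a median of 0.30, where 33.7% of all genes were past 1.5-fold (1122 higher, 554 lower). Birc3, an inhibitor of apoptosis gene, stood at 52.8 against 30.7 CPM. In the death receptor route 10 of 12 reached 20 CPM and 4 were past 1.5-fold, all higher in tumor, a share near that of all genes, with Fasl, the FAS ligand gene, at 181 against 15.6 CPM. Its receptor gene Fas was at 15.2 CPM in tumor Tdp and 32.1 CPM in tumor Cd4 cells. Among 18 regulators and cytokine receptor genes 16 reached 20 CPM, 5 were past 1.5-fold higher and 4 lower. Those lower were Il7r (117 against 299 CPM), Foxo1, a factor of resting T cells (43.7 against 133 CPM), Stat5b, a mediator of interleukin signals (28.8 against 63.2 CPM), and the survival kinase gene Pim2 (73.3 against 158 CPM). Il2rb, a chain of the interleukin 2 and 15 receptors, was 2.95-fold higher in tumor, and Cdkn1a, a p53 target, 9.11-fold. None of the 3 pore partner genes Vdac1, Vdac2 and Vdac3 was past 1.5-fold between the libraries.

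Between tumor Tdp and Cd4 cells of the same receptor, fewer genes of the lists were called. The Stat5a level of Tdp cells, 13.8 CPM, was 2.5-fold below the 34.6 CPM of Cd4 cells, with Pim1 1.61-fold lower in Tdp cells and Pim2 1.63-fold higher. Over the 16 regulators that reached 20 CPM, 1 was past 1.5-fold higher and 3 lower. The median over these 16 was -0.15, against -0.11 over all 4817 genes. In the other BCL2 family list 2 of 7 were past 1.5-fold, both lower in Tdp cells. Past 1.5-fold were 9.34% of all 4817 genes, 138 higher and 312 lower, against 33.7% between the libraries.

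The genes whose profile over the 6 labels was most like that of each member were taken from 2844 genes with 50 CPM or more in any label, by the root mean square difference of centred log2(CPM + 1). Bcl2 was closest to Klf2, a factor of resting T cells (0.22), Hmgn1 (0.27) and Bzw2 (0.27), where Bcl2 itself had an SD of 1.44 over the labels. Klf2 stood at 183, 159 and 103 CPM in tumor Tdp, Cd4 and Tcell cells and at 1131, 1198 and 975 CPM in lymph node Cd8, Cd4 and Treg cells. Bcl2l1 was closest to Syt11 (0.15), Trp53i11 (0.19) and Zc3h12d (0.20), and Bak1 to S100a13 (0.09), Elovl1 (0.12) and Csnk2b (0.12). For Bcl2l11 they were Etf1, Ube2j2 and Golgb1 (0.05 to 0.07), for Mcl1 Map3k2, Bbip1 and Msl1 (0.08 to 0.11), for Bax Atp5j2, Cyfip2 and Ndufv2 (0.04 to 0.06) and for Bid Oas1a, Agfg1 and Cldnd1 (0.14 to 0.24). The 6 points come from 2 libraries, so likeness over them is a description.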

How the data were processed

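Single T cells were profiled with 10x Genomics 5′ chemistry, per the labels' protocols. Cell Ranger 3.1.0 and mm10 were used, per the submitters' processing notes. The deposited gene table holds raw UMI counts per gene and cell for 14721 genes and 10558 cells, and a second deposited table holds annotation that is not a measurement (other values: library, label, receptor). The sources used here do not give how cells were labelled or filtered, and no doublet caller was run. No cell had fewer than 503 UMIs or over 5.00% mitochondrial counts.

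Counts were summed per label and scaled to CPM. Ratios of CPM carry intervals from the exact binomial share of the paired counts, shares carry Clopper-Pearson intervals, and the Bcl2 to Bcl2l11 ratio is of summed counts. Thinning drew 2000 UMIs per cell and left out 257 tumor and 100 lymph node cells. Receptor segments were left out of counts of genes, and Cd4, Cd8a and Cd8b1 where labels were compared. Cells of a label are not replicates, and the intervals assume independent UMIs. Alternatives included TMM factors from edgeR 4.0.16 (R 4.3.3), used for scaling only. The other steps used Python 3.11.15 with numpy 2.4.6, scipy 1.17.1 and pandas 2.3.3, and the ratios were tested on simulated data.

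The members, gene lists and comparisons were chosen with earlier results of these data known. All 7 members are named. From each of 5 further lists, genes with 20 CPM or more in any label may be named. Promoter windows and gene positions are from RefSeq on GRCm38.p6, where all 7 members matched by symbol. Receptor sequences were used only to find cells with a transgenic chain.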

Additional observations from a re-analysis of the deposited data

How the results depend on the processing

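Of 483 member log2 ratios recomputed over the 7 comparisons, 22 changed sign, none of them at a member past 1.5-fold. The recomputed ratios of Bcl2, Bcl2l1 and Bak1 in the 3 comparisons across tissue, and of Bcl2l1 in tumor Tdp against Cd4 cells, all stayed past 1.5-fold. At a minimum of 50 CPM, however, Bcl2l1 was no longer counted between the libraries (35.5 against 11.7 CPM). The same held for tumor Tdp against lymph node Cd8 cells (23.7 against 11.5 CPM). For lymph node Cd8 against Cd4 cells, 0 members past 1.5-fold became 1 with TMM scaling (Bak1), with ribosomal protein, mitochondrial and receptor genes left out of the total (Bcl2l1), at 2000 UMIs per cell (Bak1) and at a minimum of 5 CPM (Bcl2l1). For lymph node Treg against Cd4 cells, 3 became 1 at a minimum of 50 CPM, since Bcl2l1 and Bid are below it, and 4 with TMM scaling and with the narrowed Treg label (Bcl2 added, log2 ratios -0.59 and -0.67) and at 2000 UMIs per cell (Bax added, 0.66). In Treg cells at 2000 UMIs per cell, the log2 ratio of Bcl2l1 split by Tcf7 turned from -1.01 to 0.043 and that of Bid split by Foxp3 from 0.68 to -0.15. The cause was not tested; thinning leaves few UMIs of these genes. The alternatives with shared barcodes left out and with the Treg label narrowed were chosen after seeing the data. Tumor Tcell against Cd4 cells was not run without cells above the median mitochondrial share, because fewer than 50 cells were left. No paired analysis was possible because each tissue has 1 RNA library and no result comes from a test. At 2000 UMIs, Bcl2l1 in tumor Tcell against Cd4 cells went from -0.45 to -1.08.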
